A study of Saccharomyces cerevisiae with 9 samples.

Results

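The 240 protein-coding genes described here have the lowest MNase-Seq signal over the gene body, relative to the signal upstream of the same gene, among 2404 *Saccharomyces cerevisiae* genes. They were chosen by their measured values in 1 library of WT cells. The mean signal over the bins from 300 to 1000 nucleotides (nt) downstream of the transcription start site (TSS), called the body here, was divided by the mean over the 14 bins farthest upstream, which begin at -500 nt in steps of 25 nt and are called the upstream signal, and the 10% of genes with the lowest ratio were kept. Of the 2426 genes in the table, 22 had a mean under 3 RPM over the 61 bins of the window and were left out. RPM is the number of reads covering a base, scaled to a library of 1000000 reads. The 240 genes are called members below and the remaining 2164 genes the other genes.

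The series holds 9 samples, and the WT total histone MNase-Seq sample is the one analysed here. The culture reached an OD600 of 0.8, and the labels give its genotype as wild type. The other 8 samples are Rpb3-FLAG and Nrd1-TAP ChIP-exo of WT and *RTR1* deletion cells and were not analysed here. A single library gives no error between replicates and allows no test, so every comparison below describes the spread over genes of this library.

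In chromatin, DNA is wrapped around histone octamers to form nucleosomes. Active yeast promoters keep a stretch with few nucleosomes just upstream of the TSS. A well placed nucleosome, called +1, lies at the TSS, and the +2 and later nucleosomes follow at regular distances into the gene body. Micrococcal nuclease cuts the linker DNA between nucleosomes, preferring A/T-rich over G/C-rich sequence, and the DNA that stays protected is sequenced. A short read can be placed at a single position only where its sequence occurs once in the genome. Yeast descends from an ancestor whose genome was duplicated, and many of the pairs that remain, above all those of ribosomal proteins, are nearly identical in their coding sequences.

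The sequences below come from the bodies of members and from paralogs of some of them, and are shown since such copies and base composition recur in the results. They were read from the R64 assembly, which is the assembly of sacCer3, 5′ to 3′ on the strand of the gene. In the first 6 lines, 100 nt of a member, starting 600 nt after the first base of its start codon, stand above the best match of the same length in its paralog, and capitals mark the bases that differ. *LYS21* (chrIV:227993-228092, + strand) and *LYS20* (chrIV:133995-134094, + strand) encode homocitrate synthases of lysine synthesis and differ at 3 of these bases. *RPS4A* (chrX:702369-702468, - strand) and *RPS4B* (chrVIII:504818-504917, - strand) encode the same protein of the small ribosomal subunit and also differ at 3. *LEU9* (chrXV:523627-523726, + strand) and *LEU4* (chrXIV:426052-426151, - strand), which encode isopropylmalate synthases of leucine synthesis, differ at 4. The last 2 lines give the 100 nt with the highest GC content in the bodies of *WHI5* (chrXV:479960-480059, + strand; 69% GC), a repressor of the entry into the cell cycle, and *DSK2* (chrXIII:819474-819573, + strand; 63% GC), a shuttle factor that carries ubiquitinated proteins to the proteasome. In these, capitals mark G and C.
LYS21: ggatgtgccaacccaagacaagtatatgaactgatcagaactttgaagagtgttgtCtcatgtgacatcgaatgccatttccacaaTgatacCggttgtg
LYS20: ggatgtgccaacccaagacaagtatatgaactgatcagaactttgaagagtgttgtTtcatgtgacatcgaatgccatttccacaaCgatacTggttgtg
RPS4A: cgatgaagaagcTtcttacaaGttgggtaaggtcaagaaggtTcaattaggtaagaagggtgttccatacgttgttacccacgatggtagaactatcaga
RPS4B: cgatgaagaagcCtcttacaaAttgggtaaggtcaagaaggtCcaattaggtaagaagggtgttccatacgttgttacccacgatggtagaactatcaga
LEU9: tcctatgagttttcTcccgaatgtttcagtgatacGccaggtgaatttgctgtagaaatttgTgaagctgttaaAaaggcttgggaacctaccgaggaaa
LEU4: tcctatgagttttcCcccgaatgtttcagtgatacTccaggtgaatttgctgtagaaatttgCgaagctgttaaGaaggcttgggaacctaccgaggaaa
WHI5: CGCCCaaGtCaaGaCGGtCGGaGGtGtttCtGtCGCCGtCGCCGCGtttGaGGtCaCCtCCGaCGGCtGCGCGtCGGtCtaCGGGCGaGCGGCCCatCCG
DSK2: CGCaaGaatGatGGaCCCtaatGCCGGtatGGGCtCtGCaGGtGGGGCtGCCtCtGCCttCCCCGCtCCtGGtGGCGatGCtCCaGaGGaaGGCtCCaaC

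By the rule the ratio of members was low, and its values are given as a description. The ratio ranged from 0.00523 at *LYS21* to 0.596 at *TIF5*, with a median of 0.537, whereas the median of the other genes was 0.871. The last members inside the threshold were *FUN12* (0.5963), *VBA4* (0.5963) and *TIF5* (0.5964), and the first genes outside it were *RPL23B* (0.5967), *GPI13* (0.5975) and *PUF4* (0.5978), so that no gap separated members from the other genes. A body signal below the upstream signal was common, at 74.6% of all 2404 genes, and 32.9% had a body below 0.75 times the upstream signal. By the rule all 240 members met both limits.

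By the rule, which used both values, members had a lower numerator and a higher denominator of the ratio. Their median body signal was 4.10 RPM (quartiles 3.16 and 4.72), beside 5.94 RPM (5.23 and 6.70) in the other genes. Their median upstream signal was 7.85 RPM (6.81 and 8.88), beside 6.81 RPM (5.73 and 7.78). In 200 of the 240 members the body signal lay below 5.01 RPM, the first quartile of all genes. The upstream signal lay above 7.88 RPM, the third quartile, in 115 members. Both held for 75 members, 125 had a low body alone, 40 had a high upstream signal alone, and none had neither. Over all genes each limit held for 25% by construction, both held for 3.49% and neither for 53.5%. The limits fix that no member had neither, since such a gene has a ratio above that of every member. At the median body signal of members a base was covered by 137 reads and at the median upstream signal by 262 reads.

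**Figure D1:**
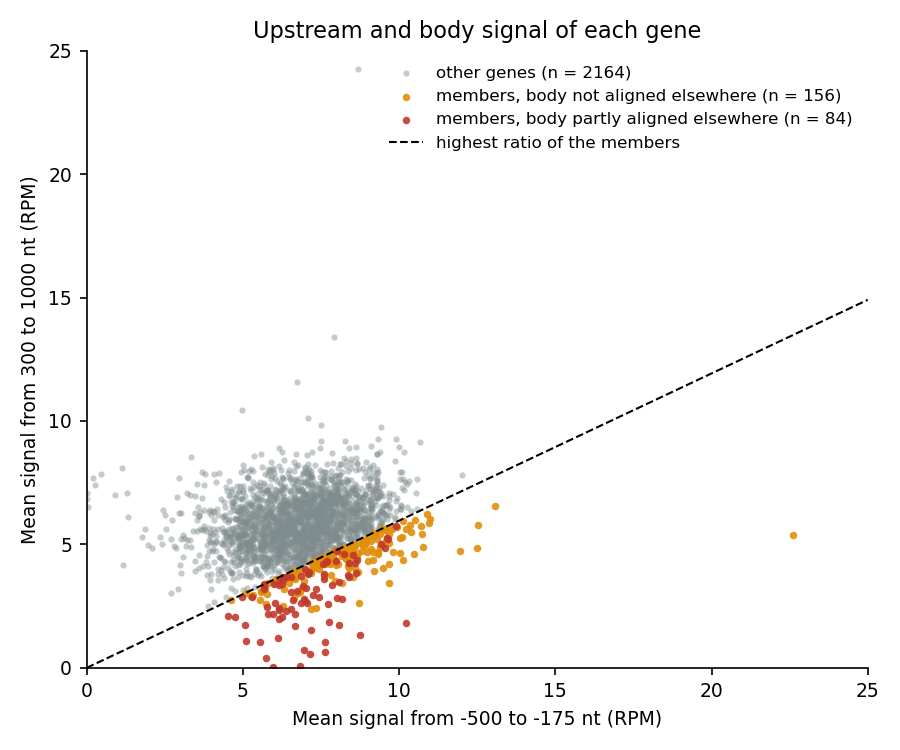
Each point is 1 gene of the WT library, with its mean upstream signal (14 bins from -500 nt) on the x axis and its mean body signal (300 to 1000 nt) on the y axis, both in RPM. The dashed line is the highest ratio of the members (0.596). Members whose body aligns elsewhere in the genome (red) reach the lowest body signals, and *DPB3* lies far to the right at 22.6 RPM.

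The members fell into 2 kinds by a property that the rule did not use, the presence of a further copy of the body in the genome. The 700 nt from 300 to 1000 nt after the start codon of each gene were aligned to R64 with blastn, and an alignment of at least 50 nt with at least 80% identity outside the gene's own place was counted as a copy. Part of the body had such a copy in 84 of the 240 members (35%), whereas the share over all genes was 8.91%. The 10 members with the lowest ratio all had one, as did 18 of the lowest 20 and 32 of the lowest 40. Among the 120 members nearest to the threshold 26 had one. Of genes with no copy, 7.13% were members (156 of 2189). This share was 10.1% (8 of 79) where up to 25% of the body had a copy, 33.3% (13 of 39) at 25 to 50%, 62.7% (32 of 51) at 50 to 75% and 68.9% (31 of 45) above 75%. Over the same 5 classes the median body signal was 5.87, 5.72, 4.87, 3.69 and 2.58 RPM, while the median upstream signal stayed between 6.11 and 7.01 RPM.

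The share of members also followed how closely the copy matched. Among genes with more than 50% of the body aligned, 4 of 16 were members where the identity of the best alignment was 80 to 85%, 8 of 17 at 85 to 90%, 27 of 35 at 90 to 95% and 24 of 28 at 95% or more. The median body signals of these classes were 5.35, 4.32, 2.95 and 2.77 RPM. Of the 27 genes in which fewer than 80% of the 50-mers of the body occur once in the genome, 22 were members. The share of members was 51.8% where 80 to 99% of the 50-mers occur once, and 7.63% at 99% or more. Genes with a copy but at least 99% of such 50-mers gave 18.1% members and a median body signal of 5.39 RPM. Most 50-mers occurred once even in the 84 members with a copy, with a median of 92.5% (quartiles 79.7 and 98.5). Not every gene with a copy was a member. *ENA1*, a sodium pump gene in a tandem array, had an alignment of 100% identity over its body and a ratio of 0.662 with 3.70 RPM. *PPH21*, which encodes a protein phosphatase 2A, had 3.86 RPM and a ratio of 0.828, while its paralog *PPH22* was a member with 1.86 RPM and 0.239. These 3 genes were singled out after their values were seen.

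Within single body windows the low signal lay mostly on the aligned stretch itself. In 41 members, at least 3 body bins lay well inside an aligned stretch and at least 3 well outside it, with 100 nt left out around each edge. In short genes, which are common among those with a copy, the bins outside can lie behind the coding sequence. The comparison then sets coding sequence against what lies behind the gene, and the 2 cases were not told apart. The signal inside was lower than outside in 39 of these 41 members, with medians of 0.381 RPM inside (quartiles 0.141 and 1.31) and 5.89 RPM outside (5.20 and 6.86). *RPL1B*, which encodes a protein of the large ribosomal subunit, had 0.0327 RPM inside, about the value of 1 read (0.03002 RPM), and 6.03 RPM outside. *RPS8B*, which encodes a protein of the small subunit, had 0.0571 RPM inside and 7.86 RPM outside. The exceptions were *ARF2*, which encodes a GTPase of vesicle transport, with 6.41 RPM inside and 2.19 RPM outside, and *CBP4*, a factor for assembly of cytochrome bc1, with 7.48 and 5.32 RPM, which is named as an exception after its values were seen. The same was seen in 42 of the other genes, whose values the choice of members did not lower. There the signal inside was lower in 38 of 42, with medians of 1.75 and 7.01 RPM. How the authors treated reads that match more than 1 place is not given in the sources used here, and the part of this treatment in the low signal was not tested.

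**Figure D2:**
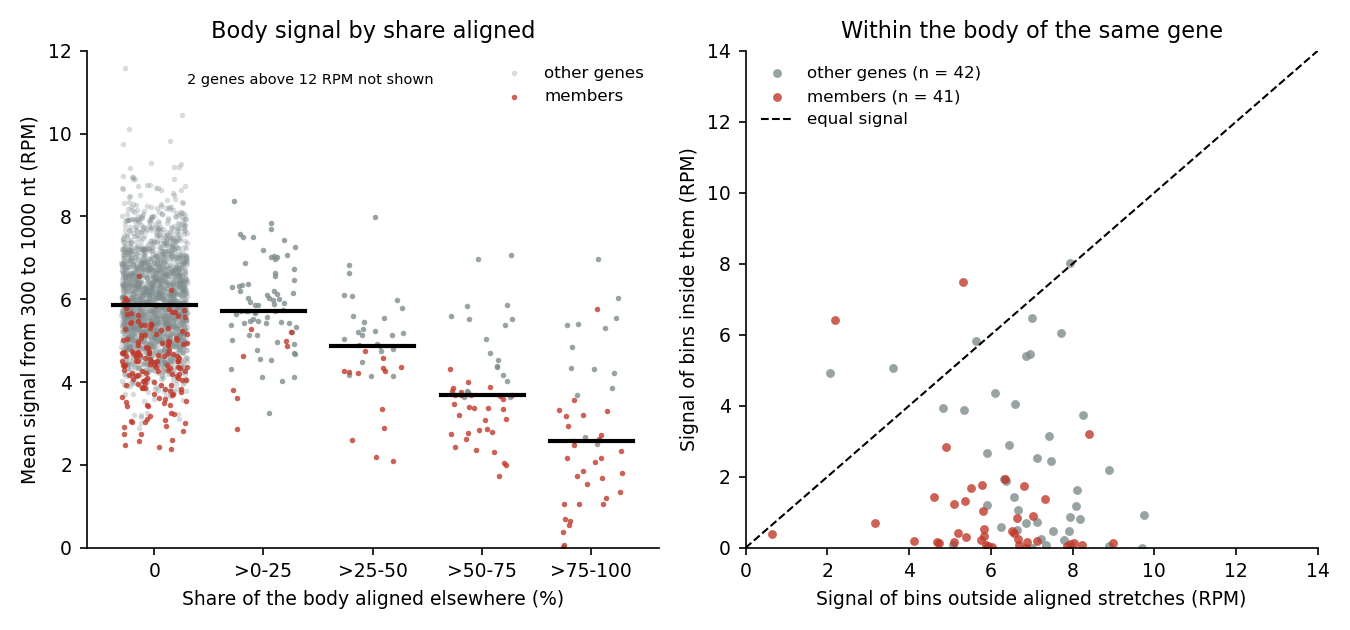
On the left each point is 1 gene, placed by the share of its body that aligns elsewhere in the genome (%) and its body signal (RPM), with black bars for the medians, which go down from 5.87 to 2.58 RPM. On the right each point is 1 gene with body bins both inside and outside aligned stretches, and 39 of 41 members and 38 of 42 other genes lie below the dashed line of equal signal. In short genes the bins outside can lie behind the coding sequence.

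Named members with a copy followed this pattern. *LYS21* had 0.0312 RPM over its body and 5.96 RPM upstream, and 26 of its 29 body bins lay under the floor of 3 reads, 0.0901 RPM. Its signal stayed under 1 RPM from 225 to 1000 nt. *SSA1*, which encodes a cytosolic Hsp70 chaperone and shares 99.6% of the body sequence with *SSA2*, had 0.0595 RPM over the body, 6.82 RPM upstream and 28 body bins under the floor. These were the members with a body mean below the floor, and their ratios, 0.00523 and 0.00872, are therefore limited by counting. *RPS4A* and *RPS4B*, each the other's copy with 98.1% identity, had body signals of 0.384 and 0.557 RPM. *RPL2A* had 0.641 and *RPL2B* 1.7995 RPM, and *RPS6B* had 1.06 and *RPS6A* 1.54 RPM. *SSF1*, a factor for assembly of the large ribosomal subunit, had 0.704 RPM. *HSC82* and *HSP82*, the pair that encodes Hsp90, had 1.35 and 1.75 RPM at 90.5% identity. *ENO1*, which encodes the glycolytic enzyme enolase, had 1.06 RPM. In each of these genes the signal returned upstream, with 5.06 RPM at *HSP82* as the lowest and 10.2 RPM at *RPL2B* as the highest upstream value.

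The 5 members with the lowest ratio among those with a coding sequence of at least 1500 nt, whose body bins lie within the coding sequence, all had copies too. Besides *SSA1* and *HSC82* they were *IMA1*, which encodes an isomaltase (1.21 RPM, ratio 0.198), *LEU9* (1.69 RPM, 0.253) and *ALD2*, which encodes an aldehyde dehydrogenase (2.58 RPM, 0.334). Over more than 50% of the body 63 members aligned elsewhere, and 44 of these encode ribosomal proteins. For 50 of the 63 the best copy lay in a gene that was itself in the table with at least 3 RPM, and for 38 that gene was a member, which gave 19 pairs with both genes among the members.

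Genes for cytosolic ribosomal proteins were the largest group of related genes in these lists. Of the 106 with at least 3 RPM, 54 were members (50.9%), whereas 9.98% of all genes were members by the rule. Of these 106 genes 86 had a copy, and 53 of the 54 members were among them. Of the 20 with no copy 1 was a member, *RPS26B* (ratio 0.591, body 3.43 RPM), whose coding sequence of 360 nt ends early in the body window, and the median ratio of the 20 was 0.971, above that of all genes without a copy (0.856). In 45 of the 54 members the gene had more than 1 coding exon, as is common among ribosomal protein genes. The genes for mitochondrial ribosomal proteins, which have no copies, gave 0 members of 27, with a median ratio of 0.940.

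**Figure D3:**
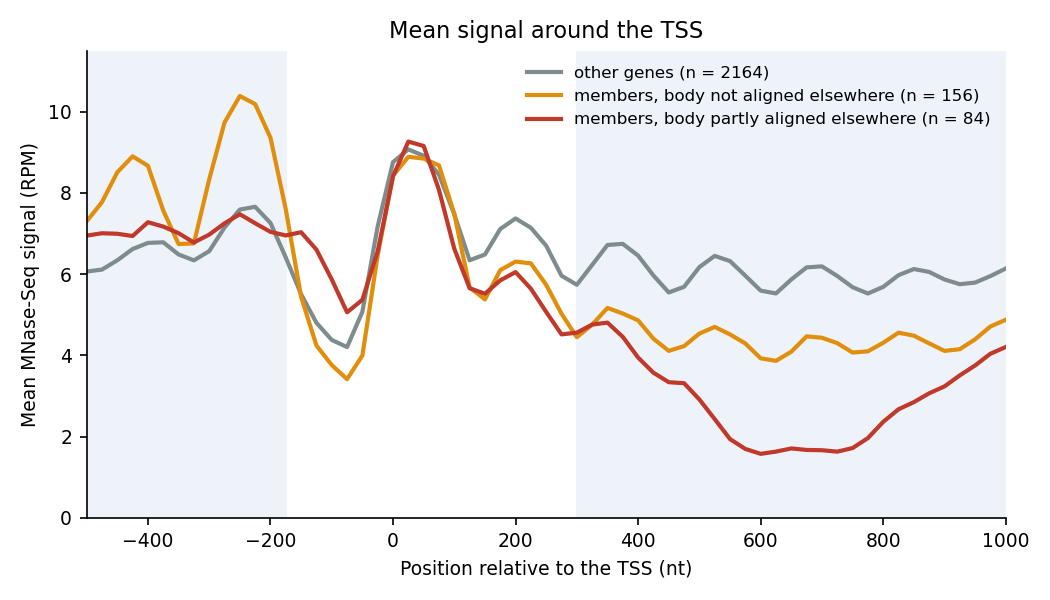
Lines give the mean MNase-Seq signal (RPM, y axis) at each of the 61 bins from -500 to 1000 nt around the TSS (x axis), for members with and without a copy of the body and for the other genes. Shaded areas are the bins that the rule used. Members with a copy fall to 1.57 RPM near 605 nt, and members without a copy rise to 10.4 RPM near -243 nt.

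The remaining lists were small. Beside the 9.98% over all genes, the share of members was 28.6% in the chaperone and heat shock list, 27.8% in the plasma membrane and cell wall list and 16.7% in the glycolysis and fermentation list. Of 14 genes for chaperones and heat shock proteins 4 were members, *SSA1*, *HSC82*, *HSP82* and *SSC1*, the last of which encodes the mitochondrial Hsp70, has no copy, and had 3.04 RPM over the body. Of 18 plasma membrane and cell wall genes 5 were members, all with copies. They were the cell wall protein genes *PIR1*, *PIR3* and *HSP150*, with ratios of 0.329, 0.475 and 0.464, and the hexose transporter genes *HXT3* and *HXT4*, with 0.431 and 0.582. Of 12 genes of glycolysis and fermentation 2 were members, *ENO1* and *TDH1*, the latter encoding glyceraldehyde-3-phosphate dehydrogenase (1.07 RPM, 92.3% identity). *CAM1*, which encodes a subunit of the elongation factor eEF1B, was 1 of 15 translation factor genes (2.93 RPM, no copy), and *COS9* was 1 of 3 genes of subtelomeric families (ratio 0.531, upstream 9.41 RPM). None of 6 histone genes and not the 1 gene of meiosis was a member. *RTR1*, *RRP6*, *NRD1*, *PHO84* and *YKL151C*, which the study names, were not members either, with ratios from 0.765 at *RTR1* to 2.10 at *PHO84*.

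The 156 members without a copy differed from the other genes at both ends of the ratio. Their median body signal was 4.51 RPM (quartiles 3.92 and 4.99) and their median upstream signal 8.36 RPM (7.35 and 9.33), while the 84 members with a copy had 3.01 RPM (2.15 and 3.72) and 6.97 RPM (6.16 and 7.89). Of the 156, 62 had a low body alone (39.7%), 37 had a high upstream signal alone (23.7%) and 57 had both (36.5%). In the other genes without a copy these shares were 17.4%, 22.8% and 0.442%. The rule used both signals, so these shares are a description. In the mean profile of these members the peak upstream of the depletion lay at -243 nt with 10.4 RPM, beside -234 nt and 7.69 RPM in the other genes. The next peak upstream lay at -422 nt with 8.91 RPM, beside -386 nt and 6.82 RPM. Downstream, the peaks from 356 to 832 nt held between 4.50 and 5.19 RPM, beside 6.13 to 6.77 RPM at the matching peaks of the other genes, and the peaks lay at like positions. The body signal thus stayed arranged in peaks and troughs.

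A few members without a copy had a single tall peak upstream of the TSS. *DPB3*, which encodes a subunit of DNA polymerase epsilon, had a body signal of 5.39 RPM, near the median of all genes (5.78 RPM). Its upstream signal was 22.6 RPM, the highest of all genes, with 57.6 RPM in the bin at -425 nt. The start codon of its divergent neighbour *PPS1*, a phosphatase gene, lies 250 nt away, and *PPS1* had its own highest bin, 58.7 RPM, at 300 nt downstream of its TSS. *PKP1*, which encodes a kinase of pyruvate dehydrogenase, had 36.2 RPM at -250 nt, and the divergent gene *GVP36* had 36.7 RPM at 75 nt. *SYF1*, which encodes a splicing factor, had 32.03 RPM in the upstream bin nearest to the TSS, and the divergent *YDR415C* had 32.04 RPM at 50 nt. *ADK1*, which encodes adenylate kinase, had 27.3 RPM at -300 nt behind *HTA1*, a histone H2A gene with 28.1 RPM at 700 nt. *EMP70*, which encodes a protein of the endosomal membrane, had 26.1 RPM at -200 nt, but the gene behind it, *RAX2*, reached only 8.90 RPM in its own window, which ends within its coding sequence of 3663 nt. None of these 5 neighbours was a member. These are the members without a copy that had an upstream bin above 25 RPM, a limit chosen after their values were seen. An upstream neighbour on the opposite strand was present at 57.5% of members and at 50.9% of the other genes.

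**Figure D4:**
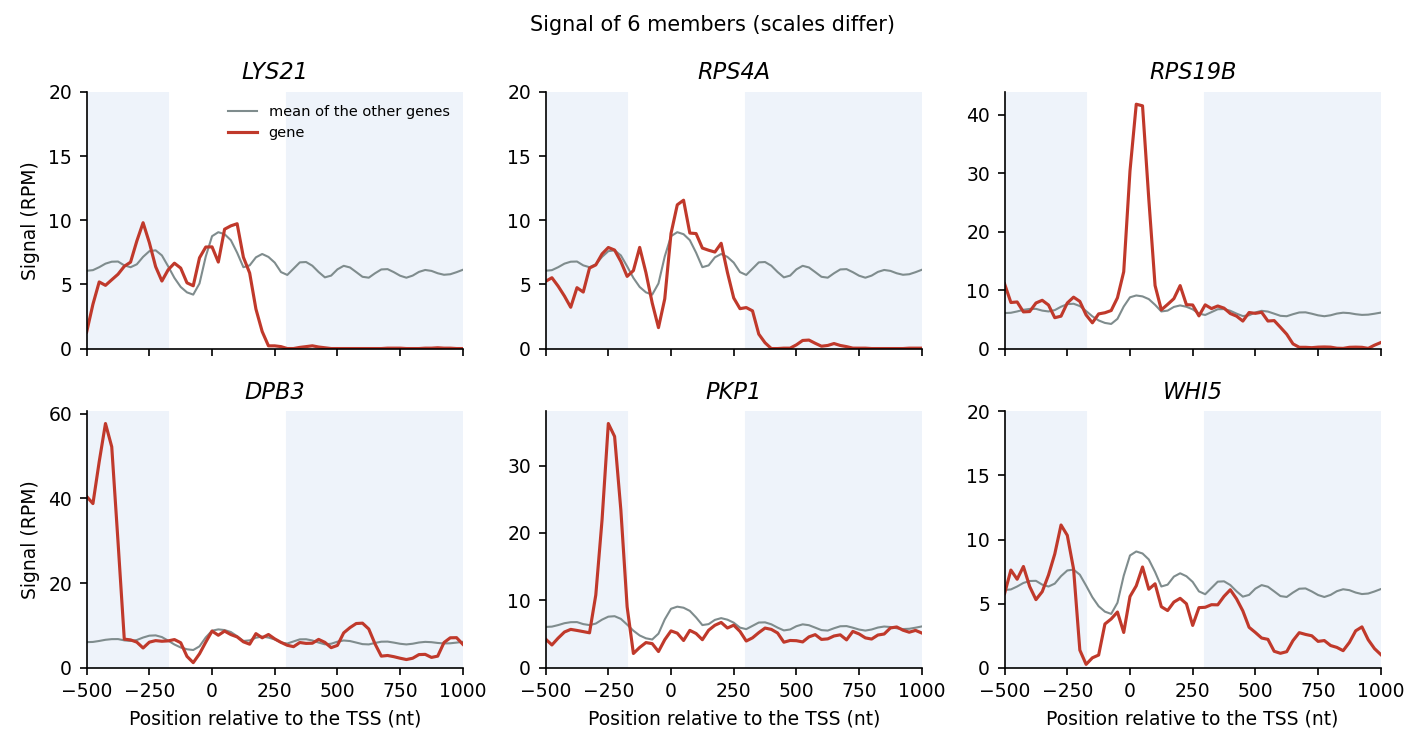
Red lines give the signal (RPM, y axis, scales differ) of 6 members along the window from -500 to 1000 nt around the TSS (x axis), and grey lines the mean of the other genes. The signal of *LYS21* and *RPS4A* ends within the gene, *RPS19B* rises to 41.8 RPM at 25 nt, *DPB3* and *PKP1* have 1 tall upstream peak each, and *WHI5* is low downstream of the start.

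Among genes without a copy, the body signal went with base composition. Spearman's rho between the GC content of the 700 nt body and the body signal was -0.46 over 2188 genes (Pearson's r -0.46), and -0.56 over the 156 members (r -0.58). The rule chose the members by this body signal, so their value is not a separate observation. Body and upstream signal had a rho of 0.83 over the 156 members and 0.24 over the 2188 genes. The rule chose members by the ratio of these signals, which ties the signals to each other. The value of 0.83 is therefore not a separate observation either. Genes of 1 library share its depth and digestion, so these values are descriptions. In the tenth of genes with the highest GC content (44.4 to 55%) the median body signal was 4.598 RPM and 42 of 211 genes were members (19.9%). In the tenth with the lowest (26.7 to 35%) the median was 6.69 RPM and 7 of 220 were members (3.18%). The median upstream signal of these groups differed too, with 6.05 RPM at the highest GC content and 7.19 RPM at the lowest. Their median ratios were 0.765 and 0.934. The GC content of the body minus that of the upstream stretch had a rho of -0.19 with the ratio over the 2188 genes (r 0.0055). A GC content of at least 45% in the body was found in 41 of the 240 members (17.1%), beside 7.7% of all genes. In members without a copy it was 36 of 156 (23.1%) and in members with a copy 5 of 84 (5.95%). The share of this composition in the low body signal was not tested.

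Named members show the range. *WHI5* and *ATS1* had the highest GC contents over the body, 55% and 54.7%, and 2.82 and 2.59 RPM. *DSK2* had 52.1% GC and 2.40 RPM, the lowest body signal of a member without a copy. *RAD23*, which encodes another shuttle factor of the proteasome, had 50.7% GC and 2.74 RPM, and *TIF3*, which encodes the initiation factor eIF4B, 45.9% GC and 2.49 RPM. *RRT13*, with 35.9% GC and 2.61 RPM, was of another kind. Its body bins reached 10.9 RPM, its signal stayed under 1 RPM from 550 to 1000 nt, and 11 of its 29 body bins lay under the floor of 3 reads. Of the 63 members with a body bin under the floor, the other 62 had a copy. Except for *RAD23*, which is adjacent to another member, these genes fall outside the rule for named genes and were chosen after their values were seen.

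**Figure D5:**
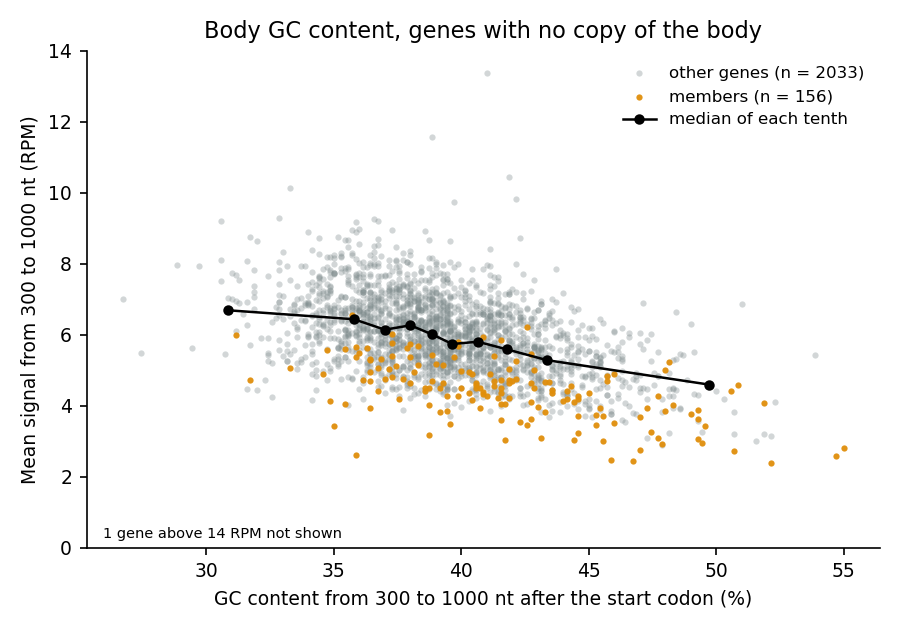
Each point is 1 gene with no copy of its body, with the GC content of the body (%) on the x axis and its signal (RPM) on the y axis. Black dots are the medians of 10 groups of genes by GC content, placed at the middle of each group's range, which go from 6.69 down to 4.598 RPM.

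Between the bins of the rule lie the 4 bins of the depletion, which end at -50 nt, the 4 of the +1 nucleosome (0 to 75 nt) and the 4 of the +2 nucleosome, which end at 250 nt. At +1 the members resembled the other genes, with medians of 8.52 RPM (quartiles 7.50 and 9.93) and 8.83 RPM (7.50 and 10.1). The +1 signal exceeded that of the depletion in 222 of the 240 members (92.5%), and in 91.6% of all genes. Of the 18 members in which it did not, 17 had a copy, among them *SSA1* (9.95 RPM in the depletion and 6.85 RPM at +1) and *PHO5*, the repressible acid phosphatase gene (8.05 and 4.01 RPM). *RPS19B*, which encodes a protein of the small ribosomal subunit, had the highest +1 signal of all genes with 34.8 RPM. The +2 signal of members was lower, with a median of 6.04 RPM beside 7.07 RPM. The mean profile of members was also lower just upstream of the TSS, with 6.50 RPM beside 7.18 RPM at -25 nt.

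The depletion signal was higher in genes with a copy, members or not. Its median was 3.79 RPM (quartiles 2.84 and 4.62) in members without a copy and 5.39 RPM (4.21 and 7.27) in members with one. In the other genes it was 4.33 RPM (3.20 and 5.68) without a copy and 5.17 RPM (4.12 and 6.73) with one. The members with the lowest depletion signal were *DAT1*, which encodes a protein that binds oligo(dA) and oligo(dT) tracts (0.647 RPM), *ERC1*, a transporter gene (0.834 RPM), and *RRN11*, which encodes a factor for initiation by RNA polymerase I (0.858 RPM). Chosen for their low values, they are shown with 60 nt around the longest run of A or T in the 300 nt promoter window, which spans 250 nt before to 50 nt after the first base of the start codon. Counted from that base, the run spans -178 to -166 nt at *DAT1*, -224 to -212 nt at *ERC1* and -245 to -224 nt at *RRN11*. The depletion bins are counted from the TSS, and whether the runs lie in them was not tested. Capitals mark the run, of 13 nt at *DAT1* (chrXIII:43843-43902, + strand) and *ERC1* (chrVIII:173096-173155, + strand) and of 22 nt at *RRN11* (chrXIII:191958-192017, - strand), in R64.
DAT1: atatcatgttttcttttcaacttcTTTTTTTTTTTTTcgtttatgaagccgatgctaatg
ERC1: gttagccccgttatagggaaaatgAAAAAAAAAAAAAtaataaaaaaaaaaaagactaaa
RRN11: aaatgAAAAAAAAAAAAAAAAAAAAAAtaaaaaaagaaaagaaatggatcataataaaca

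Over the same promoter windows, a run of at least 8 A or 8 T was found at 34.2% of the 240 members and 32.1% of the 2403 genes found in R64. The sequence TATAAA was found at 30.8% of members and 42.99% of all genes, TTACCCG, a Reb1 motif, at 8.33% and 8.61%, and CGCGC, a Rsc3 motif, at 8.75% and 10.3%. GCGATGAG, known as the PAC motif of genes for ribosome assembly, was found at 7.5% and 4.99%, AGGGG, the stress response element, at 16.3% and 21.7%, and ACCCANACA, a Rap1 motif, at 2.5% and 1.37%. All were searched on both strands. In the 156 members without a copy GCGATGAG was found at 10.3%, beside 4.82% of the other genes without a copy. For TTACCCG these shares were 10.9% and 9.05%, for the run 37.2% and 32.1%, and for ACCCANACA 1.28% and 1.13%. They were lower in these members for TATAAA (33.97% and 44.3%), CGCGC (7.69% and 10.2%) and AGGGG (15.4% and 22.3%). Of 34 genes with the symbols UTP, NOP, NOG, NOC, NOB or RRP, many of which act in ribosome assembly, 10 were members (29.4%) and none had a copy, beside shares of 9.98% over all genes and 7.13% over genes without a copy. The median upstream signal of the 34 genes was 7.70 RPM and their median body signal 5.26 RPM, beside 6.91 and 5.78 RPM over all genes. Of 14 genes with the symbol NUP, for proteins of the nuclear pore, 4 were members (28.6%), *NUP57*, *NUP49*, *NUP145* and *NUP116*, and none of the 14 had a copy. Both groups were chosen after their values were seen.

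The window around the transcript end site (TES), from -200 to 200 nt, shares no base with the body bins in genes of at least 1200 coding nt. In the 124 members of this length the median signal over this window was 6.46 RPM (quartiles 5.50 and 7.62), beside 6.91 RPM (6.06 and 7.80) in the 1333 other genes. It was 6.49 RPM in the 20 members with a copy and 6.45 RPM in those without, although the parts of the window differed. A signal below 0.75 times the median of all 1457 genes of this length was found at 22 of the 124 members (17.7%) and at 9.61% of all, at 6 of the 20 members with a copy (30%) and at 16 of those without (15.4%). *LYS21*, with almost no signal over the body, had 6.39 RPM around the TES, whereas *SSA1* had 2.86 RPM. Over the 150 nt from -200 to -50 nt, still within or near the coding sequence, the medians were 6.90 RPM in members and 7.57 RPM in the other genes, with 5.79 RPM in members with a copy and 7.14 RPM in members without. From 50 to 200 nt they were 6.78 and 6.80 RPM, with 6.56 and 6.78 RPM in the 2 kinds of member. Across the 1397 genes of this length without a copy, body and TES signal had a Spearman's rho of 0.25.

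Members were shorter than the other genes. The median coding sequence was 1220 nt in members and 1473 nt in the other genes, and 39.2% of members had one under 1000 nt, beside 28.99%. Short genes were common among genes with a copy, whether members (median 602 nt, 72.6% under 1000 nt) or not (687 nt, 64.6%). Members without a copy had a median of 1427 nt and other genes without a copy one of 1509 nt. A coding sequence under 1000 nt was less common in these members (21.2%) than in these other genes (26.7%). In short genes the body bins run past the coding sequence, and all measures of the body then include what lies behind the gene. More than 1 coding exon was present in 20% of members and 4.25% of the other genes, and in 1.28% of members without a copy.

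A neighbour that was itself a member was about as common at members as at the other genes. Of the 1256 pairs of adjacent genes in the table, 16 (1.27%) held 2 members, 10 in tandem, 5 divergent and 1 convergent. Among genes with a neighbour in the table, 32 of 199 members (16.1%) had a member beside them, and 227 of 1643 other genes (13.8%). *RPL6B* and *FPR4* (ratios 0.328 and 0.494) lie side by side on one chromosome and their paralogs *RPL6A* and *FPR3* (0.580 and 0.432) on another, and the *FPR* genes encode nuclear prolyl isomerases. *PHO5* and *PHO3*, which encode acid phosphatases and are each other's copy at 83.4% identity, had 0.437 and 0.560, and *PIR1* and *PIR3* had 0.329 and 0.475. *RPL13B* and *RPS16A* (0.435 and 0.545), *ARF2* and *RPL35B* (0.425 and 0.462) and *PHO23* and *RPS7B* (0.447 and 0.459) were further pairs with ribosomal protein genes, as were *RPL42B* with *CHS7* (0.494 and 0.585) and *NUP57* with *RPS23A* (0.521 and 0.574). In *TIM44* and *YKE4*, which encode a mitochondrial import factor and a zinc transporter and share the DNA between them, the upstream signals were 9.67 and 9.30 RPM and the ratios 0.356 and 0.563. Further pairs were *RAD23* and *ANP1*, *SRP1* and *YNL190W*, *SPC105* and *NUP145*, and *YME1* and *EAF3*, with ratios from 0.494 to 0.578. In 4 of the 5 divergent pairs the start codons lay under 1000 nt apart. The windows of each such pair share DNA, and their upstream stretches can overlap, so the genes are not independent. *PIR1* and *PIR3* lie 1581 nt apart.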

How the data were processed

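The deposited tables give coverage as a signal in RPM around each TSS and TES, which the authors computed with ngs.plot. It rests on SOLiD reads of MNase-digested WT chromatin that were placed on sacCer3 by bfast. The study's methods mention replicate experiments for plots of gene classes, but not whether this covers the MNase-Seq tables. The extension of reads and the treatment of reads that match several places are not given in the sources used here. Of 101 columns per gene, 20 at either end hold only copies of the outermost value and were dropped, the 61 between them were placed every 25 nt, and values under 1 read were set to 0. The step between edge values, 0.0300 RPM, stands for 1 of 33313664 reads, and counting error matters mainly near the floor of 3 reads. The upstream bins ran from -500 to -175 nt, those of the depletion from -125 to -50 nt and those of +2 from 175 to 250 nt.

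The WT sample forms 1 group and gives no error between replicates. Genes were matched to R64 by locus tag (2425 of 2426). Positions after the start codon approximate those after the TSS. In 416 short genes covered by both tables, the distance from TSS to TES exceeded the coding span by a median of 155 nt. Copies were found with blastn 2.17.0 with an E-value limit of 1e-05. *RPP1*, an RNase P gene whose symbol resembles those of ribosomal proteins, was kept out of that list. The members, lists, windows and named genes were chosen with earlier results of these data known. Genes were named if they had 1 of the 10 lowest ratios, 1 of the 5 lowest with a coding sequence of at least 1500 nt, lay within 3 genes of the threshold on either side, belonged to a gene list, were adjacent members or were named in the study. Choices outside this rule are stated. Some genes that meet the rule are not reported here. The selection code was tested on simulated tables with less spread between genes than the real one, which shows only that the code ran as intended. The software was Python 3.11.15 with pandas 2.3.3, numpy 2.4.6, matplotlib 3.10.9 and scipy 1.17.1.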

Additional observations from a re-analysis of the deposited data

How the results depend on the processing

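No paired analysis was possible because the MNase-Seq data hold 1 sample. Members were chosen again under 11 alternatives, of which the 2 on copies and on GC content were added after seeing the data, and a further alternative only raised the coding length for the TES window to 1500 nt. Of 122 values, 70 stayed within the 95% interval of the main median or share over genes, or within 1.5 times the main count, and 52 moved. The intervals reflect the spread over the chosen genes of 1 library, and several results are values that the rule used. The 3 counts of kept members that moved could not have stayed within the limit by construction. These totals are therefore a description and no measure of stability. Low bodies are those below the first quartile of the genes used, high upstream signals those above the third quartile, and short genes those with a coding sequence under 1000 nt.

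With a minimum of 5 RPM the medians were 0.563 for the ratio, 4.63 RPM for the body, 8.39 RPM upstream, 3.96 RPM in the depletion, 9.02 RPM at +1, 6.95 RPM at the TES and 39.8% for coding GC, with 76.8% low bodies and 64.1% high upstream signals. Without a minimum the ratio was 0.522. With the median over bins it was 0.498, with 8.30 RPM upstream, 74.2% low bodies and 59.2% high upstream signals. With the mean of all 61 bins as denominator it was 0.724, with 7.08 RPM upstream, 4.76 RPM in the depletion, 9.06 RPM at +1, 90% low bodies and 32.9% high upstream signals. With the body ended at the coding sequence it was 0.494, with 3.80 RPM in the body and 47.03% short genes.

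Among genes of at least 1000 nt, 146 of the 240 members stayed, with a ratio of 0.553, 4.42 RPM in the body, 8.18 RPM upstream, 0 short genes by construction, 77.4% low bodies and 54.8% high upstream signals. With at least 99% unique 50-mers the ratio was 0.563, with 4.56 RPM in the body, 8.18 RPM upstream, 3.82 RPM in the depletion, 24.6% short genes, 75.9% low bodies and 56.3% high upstream signals. For the lowest 5% (120 members) the ratio was 0.445, with 3.45 RPM in the body, 4.58 RPM in the depletion and 91.7% low bodies, and 58 of the 120 had a copy.

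Among genes with no copy, 156 members stayed, with a ratio of 0.572, 4.63 RPM in the body, 8.22 RPM upstream, 3.63 RPM in the depletion, 20.2% short genes, 73.9% low bodies and 59.2% high upstream signals. With the lowest 10% taken within each of 10 groups of body GC, 76.6% had low bodies and the coding GC was 39.5%. Apart from the members left out by construction, the cause of these shifts was not tested.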
